A study of Mus musculus with 8 samples.

Results

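The liver comparison of a Crtc1 knockout mouse was taken from an RNA-seq series of liver and epididymal fat. It was chosen by its tissue and genotype labels and comprised 4 of the 8 libraries: 2 labelled Crtc1-/- and 2 labelled Crtc1+/+. All 4 came from male C57BL/6 mice aged 12 weeks, kept on a normal diet and fasted for 16 h before death. Both groups therefore shared strain, age, diet and fast, and differed by label in Crtc1 alone. The Crtc1-/- line was made with CRISPR/Cas9 guides against exons 2 and 4 and was bred to homozygosity beside wild-type littermates, so by design the deletion was in every tissue and not in liver alone. The libraries of a group were described as independent biological replicates, and each came from a piece of liver. The clock time of death was not given in the sources used here.

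CRTC1 is a coactivator that enters the nucleus when cAMP and calcium rise and helps CREB switch on its target genes. It is best known in the brain, where it takes part in the control of feeding and reproduction, whereas its relative CRTC2 is the family member usually studied in the fasting liver. In a fasted liver, fatty acids released by adipose tissue are oxidised under PPARα, glucose is made under glucagon and glucocorticoid control, and the pulses of growth hormone from the pituitary set, through STAT5, which of many sex-biased genes are used.

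The targeted gene was examined first. Crtc1 (NCBI Gene 382056) was at 22.1 and 17.98 CPM (counts scaled to a common library total by TMM, which corrects for composition) under the Crtc1-/- label, and at 11.7 and 9.86 CPM under the Crtc1+/+ label. Both libraries labelled Crtc1-/- lay above both labelled Crtc1+/+. The log2 fold change was 0.89 ± 0.27 (SE) with an adjusted p of 0.184 in edgeR's quasi-likelihood test. The counts covered the whole gene and gave no view of the targeted exons alone, so the counts did not bear out the labels, and genotypes are given throughout as labels. The Y-linked genes Ddx3y, Eif2s3y, Kdm5d and Uty had between 22 and 167 counts in each of the 4 libraries, as male tissue would. Hepatocyte markers held between 17.8% and 21.3% of the counts in every library, Alb among them.

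Depth was between 16560085 and 19721481 counts per library, and 11707 of the 19348 listed genes were abundant enough to be tested. At the study's threshold for a differentially expressed gene (a DEG differed by more than 1 on the log2 scale, at p under 0.01 before adjustment), 333 genes (2.84% of those tested) lay higher under the Crtc1-/- label and 167 (1.43%) lay lower. These shares are to be set beside the DEG counts of the lists below. After Benjamini-Hochberg adjustment over all genes tested in edgeR, 7 genes (0.0598%) were higher and 3 (0.0256%) lower at an adjusted p under 0.05. Both libraries labelled Crtc1-/- lay above both labelled Crtc1+/+ for 3017 genes (25.8%) and below both for 3087 (26.4%). Such a gene is called non-overlapping, and these shares are to be set beside the list counts below. Of the 500 DEGs 499 were non-overlapping. The exception was Saa1. With upper-quartile scaling 77.1% of the DEGs were higher, against 66.6% with TMM. The counts depended on single libraries: 1306 DEGs without replicate 1 labelled Crtc1-/-, 268 without replicate 1 labelled Crtc1+/+ and 159 without replicate 2 labelled Crtc1+/+. In the same order 1507, 45 and 1 genes had an adjusted p under 0.05, and 175 without replicate 2 labelled Crtc1-/-. Replicates differed among themselves: the log2 CPM of the pair labelled Crtc1-/- correlated at 0.964 and that of the pair labelled Crtc1+/+ at 0.971 across genes, against 0.938 to 0.965 between the groups.

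Among the 10 genes that passed the adjusted threshold, Tff3 had the lowest p. Tff3 (chr17:31125306-31129611, GRCm38.p6, as for all positions here) encodes trefoil factor 3, a small secreted peptide of mucosal surfaces that liver also makes. It was at 33.9 and 54.3 CPM under the Crtc1-/- label and at 3.59 and 4.51 CPM under the Crtc1+/+ label. The groups were far apart, and the log2 fold change was 3.44 ± 0.33 (SE, adjusted p = 0.0233 in edgeR). Lpl (chr8:68880555-68906932) encodes lipoprotein lipase, which releases fatty acids from circulating triglyceride and is normally low in adult liver. It was at 38.4 and 38.5 CPM against 7.55 and 8.34 CPM, with the replicates close together on both sides, and rose by a log2 fold change of 2.27 ± 0.26 (SE, adjusted p = 0.0332 in edgeR). Mt2 (chr8:94172618-94173567) encodes metallothionein 2, which binds zinc and copper. It was at 705 and 354 CPM against 74.1 and 83.5 CPM, higher in replicate 1 than in replicate 2 of the libraries labelled Crtc1-/- but above both labelled Crtc1+/+ in each (log2 fold change 2.75 ± 0.36, SE, adjusted p = 0.0418 in edgeR). Orm3 (chr4:63356069-63359506), one of the orosomucoid plasma proteins, was at 11.7 and 6.65 CPM against 0.822 and 1.26 CPM, a log2 fold change of 3.14.

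Of the 3 that fell, Ppp1r3c (chr19:36731731-36736604) encodes a protein that brings phosphatase 1 to glycogen and promotes glycogen storage. It was at 10.8 and 10.2 CPM under the Crtc1-/- label and at 44.0 and 34.7 CPM under the Crtc1+/+ label (log2 fold change -1.91 ± 0.26, SE, adjusted p = 0.0493 in edgeR). The replicates of each group were close. Elovl3 (chr19:46131897-46135694), a fatty acid elongase, and Mup7 (chr4:60066469-60070475), a major urinary protein that carries pheromones, belong to the male-biased genes, and Cyp2b13 (chr7:26061388-26096197), Cyp3a41a (chr5:145694049-145720136) and Sult2a2 (chr7:13733506-13779637) to the female-biased ones. The female-biased genes Cyp3a41a and Sult2a2 had a library labelled Crtc1+/+ at 0, so that the size of their fitted fold changes depended on the prior count. The number of settings among 13 alternatives that kept an adjusted p under 0.05 was between 6 (Ppp1r3c) and 9 for each of the 10.

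**Figure D1:**
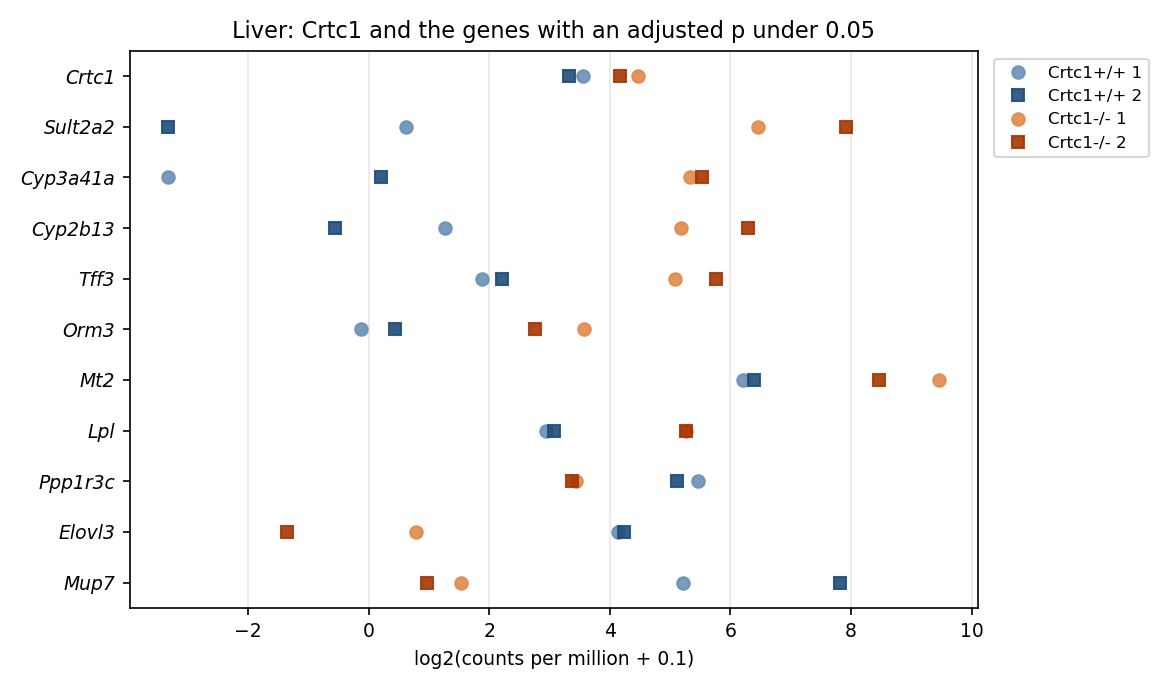
Each row is a gene and each point a library, on an axis of log2(CPM + 0.1). Circles are replicate 1 and squares replicate 2, orange and brown for the libraries labelled Crtc1-/- and blue for those labelled Crtc1+/+. In all 10 genes with an adjusted p under 0.05 the colours separate, and Crtc1 itself lies slightly further right in the libraries labelled Crtc1-/-.

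Promoter sequences are shown for both metallothioneins, which stood high together, for Ppp1r3c, whose SE was the smallest of the 3 genes that fell, and for Pck1, the textbook CREB-regulated gene of the fasted liver. Each is the 250 bases before the transcript start used in the RefSeq promoter set (GRCm38.p6), written 5′ to 3′ on the gene's strand. For Mt1 that start lies inside the annotated gene (chr8:94178883-94180327), so most of its window overlaps the gene, whereas the other windows end where the gene begins. For the metallothioneins the capitals mark the core of the metal response element, TGCNCNC on either strand, to which the zinc-sensing factor MTF1 binds. For Ppp1r3c and Pck1 they mark the CREB half-site TGACG on either strand, which the Ppp1r3c window does not hold.
Mt2 (chr8:94172368-94172617, plus strand): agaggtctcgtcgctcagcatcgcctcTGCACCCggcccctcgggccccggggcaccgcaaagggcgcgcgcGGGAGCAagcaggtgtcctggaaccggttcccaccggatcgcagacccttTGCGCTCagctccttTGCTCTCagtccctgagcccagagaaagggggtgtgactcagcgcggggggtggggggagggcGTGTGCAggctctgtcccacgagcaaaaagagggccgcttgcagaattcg
Mt1 (chr8:94178839-94179088, plus strand): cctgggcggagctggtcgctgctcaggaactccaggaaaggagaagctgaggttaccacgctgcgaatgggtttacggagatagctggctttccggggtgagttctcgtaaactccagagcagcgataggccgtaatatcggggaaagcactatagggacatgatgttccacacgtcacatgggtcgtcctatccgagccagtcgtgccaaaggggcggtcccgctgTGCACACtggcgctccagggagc
Ppp1r3c (chr19:36736605-36736854, minus strand): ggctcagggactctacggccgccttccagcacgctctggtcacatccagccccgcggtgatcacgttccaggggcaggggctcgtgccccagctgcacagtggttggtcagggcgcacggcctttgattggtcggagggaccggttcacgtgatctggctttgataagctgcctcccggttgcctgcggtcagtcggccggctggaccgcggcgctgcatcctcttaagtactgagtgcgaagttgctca
Pck1 (chr2:173152823-173153072, plus strand): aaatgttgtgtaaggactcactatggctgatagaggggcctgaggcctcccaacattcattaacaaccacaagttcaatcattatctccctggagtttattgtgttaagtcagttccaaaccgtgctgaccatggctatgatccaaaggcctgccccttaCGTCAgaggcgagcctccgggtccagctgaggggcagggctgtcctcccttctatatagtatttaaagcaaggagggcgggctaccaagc

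The Mt2 window held 5 matches to TGCNCNC. The Mt1 window, placed differently relative to its gene, held 1. A match to this looser pattern occurred in 44.4% of 32851 promoter windows, but 4 or more in 1.28%. Shares for the stricter core were not computed. The Pck1 window held 1 match to TGACG, on the opposite strand 90 bases before the start, and the Ppp1r3c window 0. TGACG occurred in 17.8% of all windows. Among the windows of tested genes it occurred in 17.2% of 244 higher DEGs, 27.9% of 129 lower DEGs and 26.9% of all 9396. The full element TGACGTCA was in 2.46%, 1.55% and 2.66% of the same windows. The STAT5 element TTCNNNGAA was in 7.38%, 4.65% and 5.87%. These shares describe letters in the windows and not binding. Of the 10 genes with an adjusted p under 0.05, 6 had a promoter window, and Lpl, Tff3, Elovl3 and Sult2a2 did not.

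Genes that differ between male and female liver were called in opposite directions by sex bias. Growth hormone is secreted in sharp pulses in males and more evenly in females, and STAT5b reads that difference. Of 24 tested genes listed as female-biased, 10 were higher DEGs and 0 lower, against 2.84% and 1.43% of all genes. 14 of the 24 were non-overlapping and higher, against 25.8% of all genes. The median log2 fold change was 1.16, where that of all tested genes was 0.00. Of 19 tested male-biased genes 0 were higher DEGs and 10 lower, and 12 were non-overlapping and lower, against 26.4% of all genes, with a median of -1.52. These counts are a description. The female-biased genes together held 0.123% and 0.222% of counts in the libraries labelled Crtc1-/- against 0.0632% and 0.0525% in those labelled Crtc1+/+. The male-biased genes held 0.304% and 0.327% against 0.785% and 0.882%. In both sums the groups did not overlap. The 10 higher female-biased DEGs were 15 without replicate 1 labelled Crtc1-/- and 9 to 11 without any 1 of the other libraries, and the median was 0.52 without replicate 2 labelled Crtc1-/-. The 10 lower male-biased DEGs were 17 without replicate 1 labelled Crtc1-/-, 4 without replicate 2 labelled Crtc1+/+ and 9 without either of the other two. With all 8 libraries of the series in one fit 1 female-biased gene was a higher DEG and 1 male-biased gene a lower DEG, with medians of 1.16 and -1.55.

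Several female-biased genes were steroid- and drug-metabolising enzymes. Cyp2b13, a female-biased P450, was at 36.2 and 78.5 CPM under the Crtc1-/- label against 2.31 and 0.577 CPM (log2 fold change 5.30 ± 0.61, SE, adjusted p = 0.0332 in edgeR). Cyp17a1, the 17α-hydroxylase of steroid synthesis, was at 161 and 212 CPM against 44.2 and 60.3 CPM and was a higher DEG (1.84). In both genes replicate 2 was the higher of the libraries labelled Crtc1-/-, and the groups did not overlap. Hao2, a peroxisomal hydroxyacid oxidase, was at 3.41 and 4.67 CPM against 0.668 and 0.630 CPM, and Atp6v0d2, a subunit of the vacuolar proton pump, at 6.76 and 6.65 CPM against 0.514 and 1.42 CPM. Both were higher DEGs. Cux2, the female-biased repressor of male genes, was at 1.36 and 2.98 CPM against 2.67 and 1.63 CPM, and the groups overlapped. Cyp2a4 and A1bg were not DEGs either, at log2 fold changes of 1.16 and 1.40 with overlapping groups.

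The sulfotransferases, which attach sulfate to steroids and bile acids, gave steep folds. Sult2a1 was at 18.8 and 307 CPM against 0.359 and 0.0525 CPM, so replicate 2 labelled Crtc1-/- was far above replicate 1, and both were above the other group (log2 fold change 9.57 ± 1.43, SE, adjusted p = 0.0617 in edgeR). Sult2a2 was at 87.4 and 243 CPM against 1.44 and 0 CPM (7.82 ± 1.0004, SE, adjusted p = 0.0418 in edgeR). Sult2a5 was at 1.05 and 13.1 CPM and listed at 0 in both libraries labelled Crtc1+/+, which makes it at least 45.3-fold higher against a floor of 3 counts per library. Sult3a1, at 2.31 and 1.63 CPM against 0.103 and 0.0525 CPM, and Sult1e1, the oestrogen sulfotransferase, at 1.21 and 1.28 CPM against 0 and 0.0525 CPM, were higher DEGs at low levels. In the whole family 6 of 12 tested sulfotransferases were higher DEGs and 0 lower, against 2.84% and 1.43% of all genes. Sult2a1, Sult2a5, Sult3a1 and Sult1e1 passed the expression filter only through the libraries labelled Crtc1-/-, so their calls were partly fixed by the filter. Without that filter 6 of 19 were higher DEGs. The higher DEGs were 3 with limma on log2(FPKM + 1), 4 of 8 tested with a mean count of at least 50, and 1 of 13 tested with all 8 libraries in one fit. Sult1a1, the phenol sulfotransferase, was at 408 and 432 CPM against 325 and 428 CPM and was not a DEG.

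Reads of these families can be split among near-identical copies. Of the 100-base windows of the longest Sult2a2 transcript, 34.6% occurred unchanged in a transcript of another gene, as did 11.4% for Sult2a1 and 9.29% for Cyp2b13. The share was 90.8% for Cyp3a41a, whose twin is Cyp3a41b. The counts of the copies alternated between libraries, as Cyp3a41a had 0 and 20 counts in replicates 1 and 2 labelled Crtc1+/+ where Cyp3a41b had 21 and 0. Summed over both copies they had 768 and 794 counts in the libraries labelled Crtc1-/- against 21 and 20, a 40.7-fold difference in CPM with the replicates of each group close together. The 8 listed Sult2a genes summed to 207 and 630 CPM against 36.0 and 64.2 CPM, an 8.35-fold difference. The family totals thus also did not overlap.

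On the male-biased side, Elovl3 was at 1.62 and 0.292 CPM under the Crtc1-/- label and at 17.5 and 18.8 CPM under the Crtc1+/+ label (log2 fold change -4.21 ± 0.55, SE, adjusted p = 0.0418 in edgeR). Cyp2d9, the testosterone 16α-hydroxylase, was at 671 and 545 CPM against 1481 and 2016 CPM, a lower DEG at -1.52. Gstp1, the pi-class glutathione transferase that is higher in male liver, was at 776 and 931 CPM against 2626 and 2396 CPM and was also a lower DEG (-1.56). In these 3 genes both libraries labelled Crtc1-/- lay below both others. Cyp7b1, the oxysterol 7α-hydroxylase, was at 6.66 and 3.91 CPM against 10.2 and 15.5 CPM, and Slco1a1, an organic anion uptake transporter, at 6.76 and 3.09 CPM against 14.0 and 33.0 CPM. Both were lower DEGs. Cspg5, a chondroitin sulfate proteoglycan, was a lower DEG at 0.210 and 0.0584 CPM against 0.976 and 1.31 CPM.

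Cyp4a12a, an androgen-responsive fatty acid hydroxylase, separated the libraries in another way. It was at 143 and 3.44 CPM under the Crtc1-/- label against 213 and 310 CPM, and Cyp4a12b at 64.3 and 1.75 CPM against 70.2 and 113 CPM. Replicate 2 labelled Crtc1-/- was far below the other 3 libraries for both while replicate 1 was close to the other group, and neither was a DEG (log2 fold changes -1.83 and -1.47). Selenbp2 went the opposite way in replicate 1 labelled Crtc1-/-, at 88.4 CPM there, 12.0 in replicate 2 and 17.6 and 34.6 CPM in the libraries labelled Crtc1+/+. Replicate 2 labelled Crtc1-/- was also the library with the higher female-biased sum.

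The major urinary proteins, pheromone carriers made in bulk by male liver, had 8 lower DEGs and 1 higher among 18 tested. The shares of all genes were 1.43% and 2.84%. Reads can be split among Mup copies, so these calls need not be separate. The lower DEGs were 12 without replicate 1 labelled Crtc1-/-, 5 without replicate 1 labelled Crtc1+/+ and 3 without replicate 2 labelled Crtc1+/+. They were 5 and 4 with limma at either pseudocount and 0 with all 8 libraries in one fit. Mup7, with 81.6% of its windows shared, was at 2.78 and 1.87 CPM against 36.9 and 224 CPM (log2 fold change -5.80 ± 0.79, SE, adjusted p = 0.0493 in edgeR). The libraries labelled Crtc1+/+ lay far from each other, and without replicate 2 of that label the value was -3.99. Mup3, a copy with 2.94% of its windows in another gene, was at 887 and 1506 CPM against 2721 and 3063 CPM, a lower DEG at -1.27. Mup20, also called darcin, the male pheromone, was at 334 and 129 CPM against 672 and 704 CPM (-1.57). Mup2, with 97.3% of its windows shared, was instead a higher DEG, at 170 and 311 CPM against 99.3 and 98.1 CPM. Summed over the 21 listed Mup genes the libraries labelled Crtc1-/- had 3357 and 2849 CPM and those labelled Crtc1+/+ 4896 and 6117 CPM, a 1.77-fold difference without overlap.

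**Figure D2:**
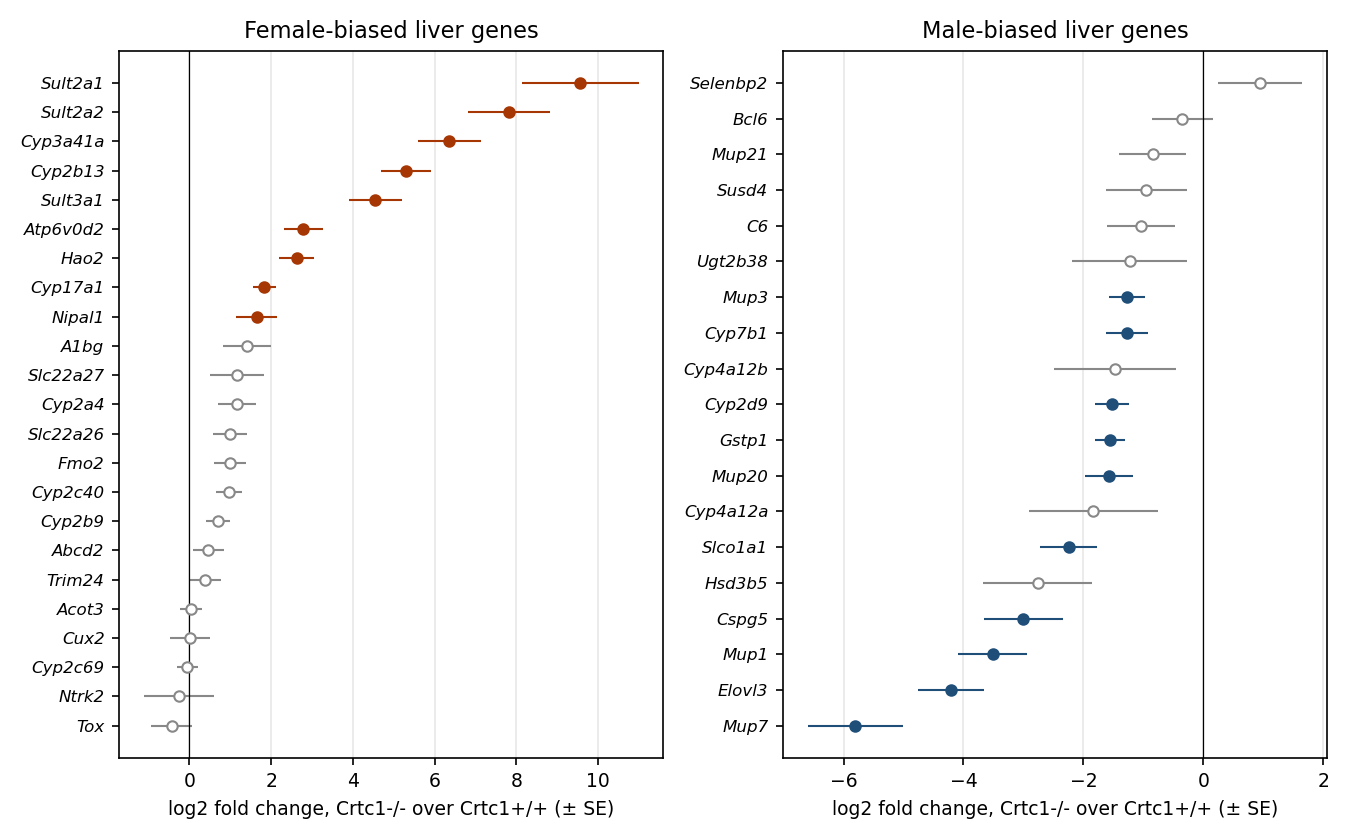
Log2 fold changes, with SE as bars, of the tested female-biased (left) and male-biased (right) genes, libraries labelled Crtc1-/- over those labelled Crtc1+/+. Filled points are DEGs. Of the 24 tested female-biased genes 10 were higher DEGs, 1 of them not drawn, and of the 19 on the right 10 are lower DEGs.

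In the growth hormone axis itself, of 16 tested genes 1 was a higher DEG and 0 were lower. Socs2, a STAT5 target that dampens growth hormone signalling, was at 14.5 and 7.65 CPM against 2.77 and 2.15 CPM, above the other group in both libraries (log2 fold change 2.17 ± 0.39, SE, adjusted p = 0.0790 in edgeR). Cish, a STAT5 target of the same family, was at 45.6 and 4.90 CPM against 8.11 and 14.4 CPM and overlapped, with replicate 1 labelled Crtc1-/- alone high. Igf1, the growth factor released by liver under growth hormone, was at 472 and 340 CPM against 233 and 299 CPM, non-overlapping but not a DEG (0.61). Stat5b was at 33.1 and 22.1 CPM against 22.7 and 28.2 CPM, and Ghr, the growth hormone receptor, at 110 and 91.2 CPM against 65.0 and 90.6 CPM. Bcl6, a male-biased repressor, was at 3.51 and 13.1 CPM against 12.2 and 8.82 CPM, with the groups overlapping.

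For fatty acid uptake, Cd36, the scavenger receptor that takes up long-chain fatty acids and is itself higher in female liver, stood beside Lpl. It was at 41.1 and 23.3 CPM under the Crtc1-/- label and at 14.1 and 10.3 CPM under the Crtc1+/+ label, a higher DEG at 1.40. Plin5, which coats lipid droplets and ties them to mitochondria, was at 43.8 and 54.0 CPM against 120 and 91.9 CPM (-1.11), and Lipg, the endothelial lipase, at 1.36 and 1.81 CPM against 3.44 and 6.87 CPM (-1.70). Both were lower DEGs. The 23 tested genes of uptake and lipid droplets thus held 2 DEGs in each direction, with a median of -0.15. Fabp1, the liver fatty acid binding protein, was at 1430 and 2098 CPM against 1784 and 1572 CPM, and Pnpla2, the main triglyceride lipase, at 212 and 215 CPM against 292 and 197 CPM. Neither separated the groups.

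Genes of fatty acid oxidation lay mostly lower. Of 32 tested, 1 was a higher DEG and 4 were lower, and 17 were non-overlapping and lower against 26.4% of all genes, with 3 non-overlapping and higher. The median log2 fold change was -0.43, and between -0.41 and -0.56 without any 1 library. The lower DEGs were 8 without replicate 1 labelled Crtc1-/-, 0 without replicate 1 labelled Crtc1+/+ and 1 without replicate 2 labelled Crtc1+/+. They were also 1 under upper-quartile scaling, under library-size scaling and with a mean count of at least 50, and 0 with all 8 libraries in one fit, with medians between -0.35 and -0.43. Ehhadh, the bifunctional enzyme of peroxisomal oxidation, was at 540 and 574 CPM against 1221 and 1062 CPM (-1.03). Cyp4a14, a PPARα-driven fatty acid hydroxylase, was at 3538 and 3831 CPM against 8372 and 6922 CPM (-1.05). Hadhb, the thiolase subunit of the mitochondrial trifunctional protein, was at 136 and 99.2 CPM against 223 and 250 CPM (-1.01), and Acot1, a cytosolic acyl-CoA thioesterase, at 58.0 and 72.3 CPM against 244 and 134 CPM (-1.54). All 4 were lower DEGs, and in each both libraries labelled Crtc1-/- were below both others. The opposite call was Cyp4a32, at 101 and 175 CPM against 59.9 and 70.9 CPM.

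Other enzymes of the pathway lay on the same side without being DEGs. Cpt2, the inner carnitine palmitoyltransferase, was at 200 and 160 CPM against 350 and 318 CPM (-0.89). Acadvl, the very-long-chain dehydrogenase, was at 535 and 428 CPM against 732 and 677 CPM (-0.55). Cpt1a, the gatekeeper of mitochondrial entry, overlapped at 348 and 167 CPM against 327 and 442 CPM. Ppara itself was at 94.3 and 82.1 CPM against 56.3 and 78.2 CPM, non-overlapping and higher without being a DEG (0.39). Fgf21, the fasting hormone, was at 19.3 and 3.97 CPM against 5.39 and 1.78 CPM, with the groups overlapping. The 6 tested ketone body genes held 0 DEGs, 4 of them non-overlapping and lower, against 26.4% of all genes.

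De novo lipogenesis gave calls in both directions. Scd1, the stearoyl-CoA desaturase, was a higher DEG at 996 and 835 CPM against 405 and 486 CPM (1.04). Acly, which supplies cytosolic acetyl-CoA, was a lower DEG at 25.7 and 16.2 CPM against 46.0 and 82.2 CPM (-1.61). Me1, malic enzyme, was at 33.8 and 46.1 CPM against 93.4 and 88.8 CPM (-1.19), and Fads2, the delta-6 desaturase, at 179 and 75.4 CPM against 299 and 380 CPM (-1.42). Acacb, the acetyl-CoA carboxylase whose malonyl-CoA restrains carnitine palmitoyltransferase, was at 19.8 and 12.1 CPM against 37.2 and 27.1 CPM (-1.01). These 4 lower DEGs and 1 higher were among 19 tested genes. The lower ones were 2, 1 and 0 without replicate 2 labelled Crtc1-/-, replicate 1 labelled Crtc1+/+ and replicate 2 labelled Crtc1+/+, 1 with limma on log2(FPKM + 1) and 2 with all 8 libraries in one fit. Fasn, fatty acid synthase, was at 138 and 182 CPM against 149 and 145 CPM, and Srebf1, the master regulator, at 40.7 and 45.0 CPM against 39.8 and 47.9 CPM. Both overlapped, with log2 fold changes of 0.12 and -0.03.

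**Figure D3:**
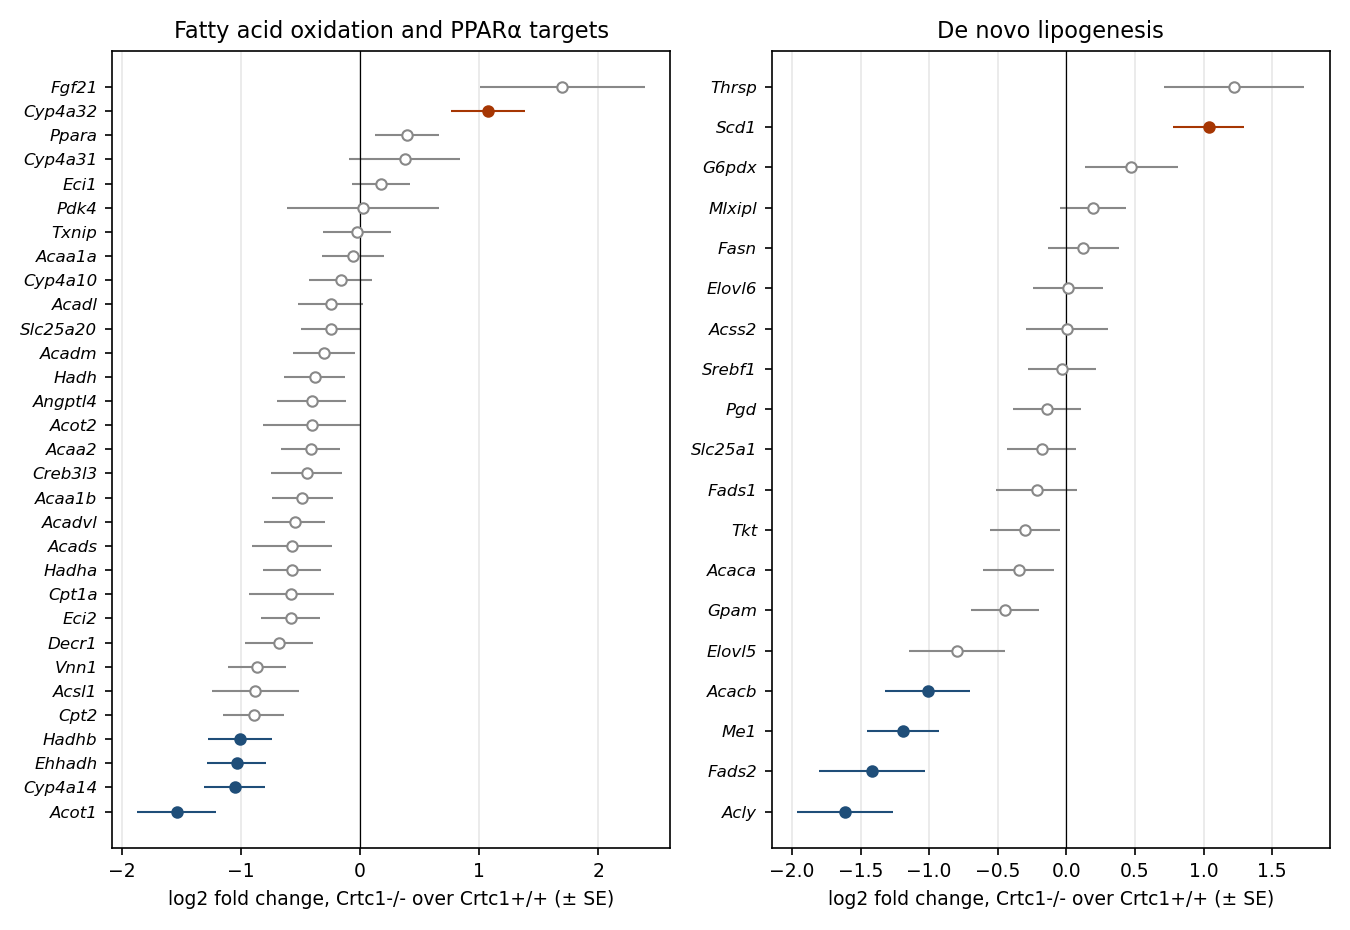
Log2 fold changes, with SE as bars, of tested genes of fatty acid oxidation and PPARα targets (left) and de novo lipogenesis (right), libraries labelled Crtc1-/- over those labelled Crtc1+/+. Filled points are DEGs. On the left, where 1 of the 32 tested genes is not drawn, most points lie below 0, with 4 lower DEGs and 1 higher, and on the right 4 lower DEGs stand beside 1 higher, Scd1.

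Apolipoproteins lay mostly higher. Apoc3, which slows the clearance of triglyceride-rich particles and inhibits lipoprotein lipase, was at 5159 and 5363 CPM under the Crtc1-/- label and at 2341 and 2187 CPM under the Crtc1+/+ label, a higher DEG (log2 fold change 1.22 ± 0.25, SE, adjusted p = 0.119 in edgeR). Apoc1 was at 7691 and 8626 CPM against 4114 and 3818 CPM (1.04), also a DEG. Of 17 tested genes of this group 2 were higher DEGs and 0 lower, and 10 were non-overlapping and higher against 25.8% of all genes. The higher DEGs were 4, with 1 lower, without replicate 1 labelled Crtc1-/-, 1 without replicate 2 labelled Crtc1-/-, and 0 without either library labelled Crtc1+/+ or with all 8 libraries in one fit. Apoa1, the main protein of HDL, was at 24102 and 26019 CPM against 17253 and 17135 CPM (0.54), non-overlapping and not a DEG. Apob, the backbone of VLDL, overlapped at 877 and 835 CPM against 707 and 854 CPM, and Mttp, which loads it with lipid, was at 145 and 197 CPM against 208 and 255 CPM (-0.44).

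Of 24 tested cholesterol synthesis genes and SREBP2 targets 0 were DEGs, with a median of 0.32. Without replicate 1 labelled Crtc1-/- 9 were higher DEGs and 1 lower, with a median of 0.71, and the median was -0.03 without replicate 2 labelled Crtc1-/-, 0.09 without replicate 1 labelled Crtc1+/+ and 0.81 without replicate 2 labelled Crtc1+/+. DESeq2 gave 4 higher DEGs. Sqle, squalene epoxidase, was at 6.60 and 30.1 CPM against 5.70 and 11.6 CPM, high in replicate 2 labelled Crtc1-/- alone. Among 23 bile acid genes Cyp2c70, which makes the muricholic acids of mice, was a higher DEG at 104 and 114 CPM against 26.5 and 63.5 CPM (1.28), and Cyp7b1 the 1 lower. Cyp7a1, the rate-limiting enzyme of bile acid synthesis, overlapped at 52.1 and 104 CPM against 63.6 and 73.6 CPM.

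Glucose production genes showed 0 DEGs among 15 tested. Pck1, phosphoenolpyruvate carboxykinase, was at 1349 and 1037 CPM under the Crtc1-/- label and at 384 and 2042 CPM under the Crtc1+/+ label, so that the latter enclosed the former (log2 fold change -0.02 ± 0.59, SE). G6pc, the glucose-6-phosphatase catalytic subunit, was at 33.9 and 63.0 CPM against 40.2 and 211 CPM (-1.37 ± 0.62, SE, adjusted p = 0.297 in edgeR). For both, replicate 2 labelled Crtc1+/+ was the highest library, and without it the log2 fold changes were 1.62 for Pck1 and 0.26 for G6pc. Fbp1, fructose-bisphosphatase, was at 1025 and 314 CPM against 1267 and 1361 CPM (-0.97), and Got1 at 229 and 102 CPM against 300 and 378 CPM (-1.03). These were non-overlapping, with replicate 2 labelled Crtc1-/- lowest, and not DEGs. Ppargc1a, the CREB-induced coactivator, was at 2.20 and 3.79 CPM against 1.28 and 3.36 CPM.

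Beside Ppp1r3c, other glycogen genes lay lower without being DEGs. Ppp1r3b, the major hepatic glycogen-targeting subunit, was at 54.9 and 62.7 CPM against 88.3 and 113 CPM (-0.77). Stbd1, a glycogen-binding protein, was at 33.8 and 26.4 CPM against 51.6 and 58.7 CPM (-0.87), and Pygl, glycogen phosphorylase, at 108 and 71.7 CPM against 124 and 208 CPM (-0.89). Gys2, the liver glycogen synthase, was at 119 and 145 CPM against 169 and 178 CPM (-0.39). Of 13 tested, 7 were non-overlapping and lower and 2 higher, against 26.4% and 25.8% of all genes. In glycolysis, Pfkfb3, which makes the activator fructose 2,6-bisphosphate, was the lower DEG among 16 tested, at 2.83 and 3.33 CPM against 8.06 and 14.3 CPM (-1.86).

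CREB targets and cAMP signalling genes, the group nearest to the known role of CRTC1, held 1 higher DEG and 0 lower among 18 tested, with a median of 0.03. The DEG was Id1, an inhibitor of helix-loop-helix factors, at 6.34 and 8.11 CPM against 2.77 and 1.84 CPM (1.64). Crtc2 was at 22.2 and 16.3 CPM against 22.5 and 23.8 CPM, and Crtc3 at 13.3 and 7.65 CPM against 12.8 and 10.8 CPM. Creb1 was at 4.66 and 8.23 CPM against 3.44 and 3.94 CPM (0.80), non-overlapping and not a DEG. Sik1, a CREB target whose kinase restrains the CRTC proteins, was at 5.35 and 20.3 CPM against 12.7 and 17.6 CPM, and Nr4a1 at 1.42 and 1.23 CPM against 1.23 and 1.63 CPM. Both overlapped.

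Immediate early genes had 8 non-overlapping higher members of 15 tested and 1 lower, against 25.8% and 26.4% of all genes, with a median of 0.61. Junb, an AP-1 subunit, was the DEG, at 24.4 and 30.0 CPM against 10.5 and 15.7 CPM (1.05). Jun was at 17.9 and 13.4 CPM against 9.24 and 11.3 CPM (0.61), while Fos and Egr1 were not DEGs, at 0.70 and 0.19. The median of the list was 0.28 with limma on log2(FPKM + 1).

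Glucocorticoid-responsive genes split. Mt1, the second metallothionein, was at 1604 and 1412 CPM under the Crtc1-/- label against 260 and 573 CPM, a higher DEG (log2 fold change 1.86 ± 0.37, SE, adjusted p = 0.113 in edgeR), and Mt1 and Mt2 thus stood high together. Klf9, a glucocorticoid- and clock-driven repressor, was at 66.6 and 72.9 CPM against 11.6 and 23.8 CPM (1.98), also a higher DEG. Tsc22d3, known as GILZ, was on the contrary a lower DEG, at 64.0 and 85.1 CPM against 121 and 195 CPM (-1.08), as was Cdkn1a, the cell-cycle inhibitor p21, at 8.81 and 16.2 CPM against 29.4 and 35.5 CPM (-1.38). Fkbp5 and Per1, 2 further targets, were at 19.4 and 30.2 CPM against 27.1 and 54.9 CPM and at 28.6 and 42.4 CPM against 34.7 and 36.5 CPM. Of 15 tested, 3 were higher DEGs and 2 lower, and the lower ones were 0 without replicate 1 labelled Crtc1-/- and 0 without replicate 2 labelled Crtc1+/+.

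In the circadian clock, genes with opposite daily phases were called in opposite directions. Arntl, which encodes the activator BMAL1, was at 0.681 and 0.992 CPM under the Crtc1-/- label against 2.98 and 4.51 CPM, a lower DEG (log2 fold change -2.16 ± 0.45, SE, adjusted p = 0.121 in edgeR). Nfil3, a repressor of D-box genes that peaks near Arntl, was lower too, at 6.66 and 12.3 CPM against 21.3 and 24.6 CPM (-1.28). Dbp, the D-box activator that BMAL1 drives, was a higher DEG at 204 and 109 CPM against 33.4 and 51.3 CPM (1.88). Per3 was at 8.54 and 15.1 CPM against 3.18 and 4.25 CPM (1.67), and Rora, which encodes an activator of Arntl, at 11.5 and 13.1 CPM against 4.42 and 5.19 CPM (1.35). In all 5 the groups did not overlap. The list median of 0.10 was 0.45 without replicate 1 labelled Crtc1-/- and 0.20 without replicate 2 of that label. It was -0.01 without replicate 1 labelled Crtc1+/+ and 0.57 without replicate 2 of that label. Without replicate 1 labelled Crtc1+/+ 0 higher and 1 lower were DEGs, and without replicate 2 labelled Crtc1+/+ 3 and 0. Nr1d1, Per1, Clock and Cry1 overlapped, at log2 fold changes of -0.01, -0.01, 0.16 and -0.20. The hour of death of each mouse is not known, so genotype and sampling hour cannot be told apart for these genes.

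The acute phase list held 5 higher DEGs and 1 lower. Saa1, serum amyloid A1, was at 438 and 46.3 CPM under the Crtc1-/- label and at 31.7 and 47.7 CPM under the Crtc1+/+ label, and Saa2 at 164 and 15.3 CPM against 10.8 and 12.8 CPM. Lcn2, lipocalin 2, was at 387 and 87.4 CPM against 36.0 and 21.6 CPM. Replicate 1 labelled Crtc1-/- stood apart in all 3, and replicate 2 lay inside the other group for Saa1. These 3 with Orm2, at 80.3 and 50.4 CPM against 23.3 and 17.1 CPM, and Orm3 made 5 higher DEGs of 27 tested. That count was 3 without replicate 1 labelled Crtc1-/-, 1 without replicate 2 labelled Crtc1+/+ and 1 with all 8 libraries in one fit, and the list median of 0.26 was 0.06 without replicate 2 labelled Crtc1-/- and 0.03 without replicate 2 labelled Crtc1+/+. Serpina3m was the lower DEG, at 187 and 174 CPM against 382 and 379 CPM (-1.08). The fibrinogen chains Fga, Fgb and Fgg lay lower at -0.90, -0.35 and -0.74 and were not DEGs. The list as a whole had 7 non-overlapping members higher and 9 lower, or 25.9% and 33.3%. These shares were near the 25.8% and 26.4% of all genes.

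Hepcidin, the hormone that blocks iron export, is encoded by Hamp, and mice have a second gene of the family, Hamp2. Hamp2 was at 684 and 532 CPM under the Crtc1-/- label and at 55.6 and 5.35 CPM under the Crtc1+/+ label, a higher DEG (log2 fold change 4.32 ± 0.85, SE, adjusted p = 0.108 in edgeR). Hamp was at 848 and 505 CPM against 426 and 11.3 CPM (1.63) and was not a DEG. Replicate 2 labelled Crtc1+/+ was far below replicate 1 for both. None of the 100-base windows of either transcript was shared with another gene.

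Among immune genes, all 7 tested MHC class II genes had log2 fold changes above 0, with a median of 1.17, and 3 were DEGs. H2-Aa, an antigen-presenting chain, was at 49.9 and 24.4 CPM against 14.4 and 9.97 CPM (1.61). H2-Ab1 was at 49.8 and 28.9 CPM against 19.8 and 13.01 CPM (1.26). Both libraries labelled Crtc1-/- were above both others, replicate 1 the more so. Of 21 chemokines and cytokines 4 were higher DEGs and 0 lower: Ccl5, at 9.59 and 5.84 CPM against 2.16 and 1.73 CPM, Cxcl9, Ccl21a and Il1a. Of 25 interferon-regulated genes 3 were higher DEGs and 0 lower. Isg15 was at 33.6 and 15.4 CPM against 8.27 and 11.4 CPM (1.32), again highest in replicate 1. The interferon median of 0.73 was 0.19 without replicate 1 labelled Crtc1-/- and 1.28 without replicate 2, where 1 and 11 genes were higher DEGs, and 0 were without replicate 1 labelled Crtc1+/+. The MHC class II DEGs were 1 and 5 without replicates 1 and 2 labelled Crtc1-/- and 0 without replicate 2 labelled Crtc1+/+. The 4 chemokines were 2 without either library labelled Crtc1+/+. With all 8 libraries in one fit the DEGs of the MHC class II, chemokine and interferon lists were 0, 1 and 1. The 6 tested T and NK cell markers summed to 8.81 and 5.37 CPM against 2.93 and 2.31 CPM, and those of Kupffer cells, the resident macrophages, to 579 and 331 CPM against 485 and 287 CPM. The 7 markers of monocytes and lipid-associated macrophages summed to 39.7 and 19.6 CPM against 45.4 and 30.4 CPM. In these last 2 sums the groups overlapped.

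Summed stromal markers lay above the range of the libraries labelled Crtc1+/+ in both libraries labelled Crtc1-/-. In bulk RNA more cells of a type and more RNA per cell cannot be told apart. The 11 tested stellate cell markers, genes of the vitamin A-storing cells that make scar matrix, summed to 288 and 519 CPM against 218 and 208 CPM, with 9 non-overlapping and higher and 0 lower, against 25.8% and 26.4% of all genes. Dcn, decorin, was at 50.6 and 134 CPM against 33.2 and 44.3 CPM (1.25). The 15 sinusoidal endothelial markers summed to 205 and 256 CPM against 164 and 146 CPM, 9 of them non-overlapping and higher. Lyve1, the hyaluronan receptor of sinusoids and lymphatics, was the DEG, at 10.2 and 18.8 CPM against 4.01 and 5.30 CPM (1.64). Replicate 2 labelled Crtc1-/- was the highest library for both lists.

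Smooth muscle genes gave 4 higher DEGs of 6 tested, against 2.84% of all genes, and 1 with all 8 libraries in one fit. The list median of 1.79 was between 1.56 and 2.23 without any 1 library. Acta2, smooth muscle actin, which activated stellate cells also use, was at 7.97 and 8.11 CPM under the Crtc1-/- label and at 1.69 and 1.99 CPM under the Crtc1+/+ label (log2 fold change 2.12 ± 0.34, SE, adjusted p = 0.0668 in edgeR). Myh11, the smooth muscle myosin, was at 2.25 and 3.27 CPM against 0.154 and 0.840 CPM (2.46), and Tagln at 4.61 and 5.78 CPM against 1.44 and 2.31 CPM (1.47). Of 36 extracellular matrix genes 2 were higher DEGs and 1 lower, with 21 non-overlapping and higher against 25.8% of all genes. The higher DEGs were 12 without replicate 1 labelled Crtc1-/-, 7 under upper-quartile or library-size scaling, 5 with a mean count of at least 50 and 0 with all 8 libraries in one fit. Col1a1, the main fibrillar collagen, was at 26.4 and 35.9 CPM against 11.1 in each library labelled Crtc1+/+ (1.48), and Mgp, matrix Gla protein, at 3.46 and 3.56 CPM against 0.616 and 0.682 CPM (2.42). Col15a1 was the lower DEG, at 3.93 and 2.45 CPM against 7.70 and 7.87 CPM. Fn1, fibronectin, which hepatocytes also secrete, was at 713 and 495 CPM against 1123 and 1247 CPM (-0.97). The part of vessel or stromal content of the sampled piece in these values was not tested.

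Genes of the epididymis, the duct that matures sperm, were counted in the libraries labelled Crtc1-/-. Gpx5, the epididymal glutathione peroxidase, was at 51.2 and 7.53 CPM against 1.28 and 1.05 CPM (log2 fold change 4.65 ± 0.80, SE, adjusted p = 0.0689 in edgeR). Lcn8 was at 8.86 and 1.05 CPM against 0.205 and 0.210 CPM, and Spag11b at 11.1 and 1.40 CPM against 0.103 and 0.367 CPM. Replicate 1 labelled Crtc1-/- was the highest in each. Of the 10 listed epididymis markers 3 passed the expression filter, all higher DEGs, against 2.84% of all genes. Spag11b was not among these 3. Those other than Gpx5 passed only through the libraries labelled Crtc1-/-, so their calls were partly fixed by the filter. The other 7 listed markers had at most 69 counts in replicate 1 and at most 6 in replicate 2 labelled Crtc1-/-. Without the filter 7 of the 10 were higher DEGs. Epididymal fat was collected in the same series. Of 12 adipocyte markers 6 were tested, with 0 DEGs and 2 non-overlapping and higher, and they summed to 312 and 223 CPM against 205 and 395 CPM. Adipoq and Plin1, not tested, had at most 12 counts in every liver library. The 3 tested epididymis markers summed to 62.9 and 9.11 CPM against 1.64 and 1.36 CPM. All 10 listed markers together held 0.00740% of the counts of replicate 1 and 0.00106% of those of replicate 2. Their part in other results was not tested. Without replicate 1 labelled Crtc1-/- 2 of the tested markers were higher DEGs, and 1 without either library labelled Crtc1+/+.

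**Figure D4:**
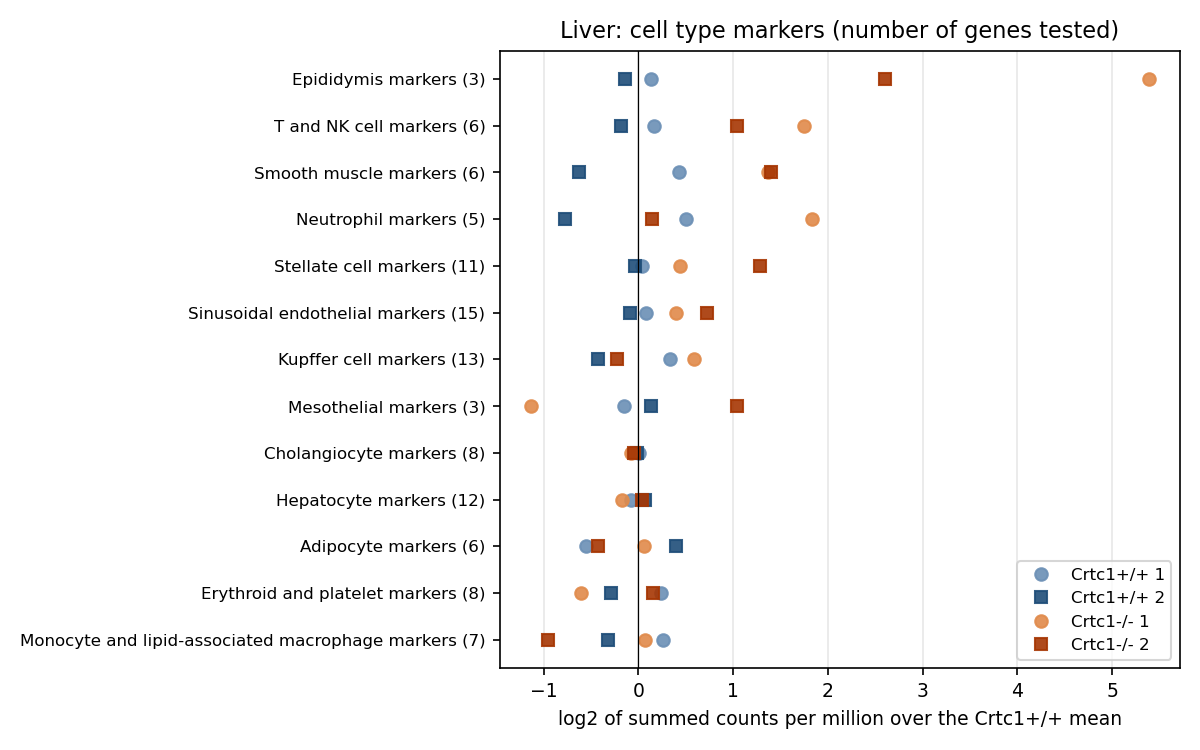
For each cell type list the points give the log2 ratio of the summed CPM in each library to the mean of the libraries labelled Crtc1+/+ (0 on the axis). Circles are replicate 1 and squares replicate 2. Hepatocyte and cholangiocyte sums stay near 0, while stellate, sinusoidal endothelial, smooth muscle and T and NK cell sums lie to the right in both libraries labelled Crtc1-/-, and epididymis markers furthest right in replicate 1.

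Of 12 tested hepatocyte markers 0 were DEGs, and Alb, albumin, was at 94619 and 126126 CPM against 110748 and 127629 CPM. Hnf4a, the central hepatocyte transcription factor, was at 382 and 437 CPM against 557 and 614 CPM (-0.52), non-overlapping and not a DEG. Pericentral genes, used around the hepatic vein under Wnt signals, had 9 non-overlapping lower members of 16 tested and 1 higher, against 26.4% and 25.8% of all genes, with a median of -0.49. Rnf43, a Wnt target that removes Wnt receptors, was the lower DEG, at 5.08 and 6.54 CPM against 20.03 and 15.95 CPM (-1.63). Axin2 and Lgr5, 2 more Wnt targets, were at -0.94 and -1.28, and Glul, glutamine synthetase, was at 469 and 695 CPM against 932 and 947 CPM (-0.69). None of these 3 was a DEG. The 16 periportal genes had a median of 0.00 and 1 lower DEG, Ctsc. Beyond zonation, Ugt1a1, which conjugates bilirubin, was a lower DEG at 229 and 125 CPM against 445 and 502 CPM (-1.42), and Osgin1, an NRF2 target, a higher one at 317 and 191 CPM against 102 in each library labelled Crtc1+/+ (1.32). Gldc, of the glycine cleavage system, was lower at 102 and 70.6 CPM against 164 and 220 CPM (-1.15). Serpina1e, an α1-antitrypsin copy, was at 1376 and 655 CPM against 4591 and 10157 CPM (-2.86), but the 6 Serpina1 copies summed to 45088 and 34845 CPM against 50651 and 59330 CPM, a 1.38-fold difference.

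Genes of the translation and respiratory machinery differed by small amounts. Of 81 cytosolic ribosomal protein genes 58 were non-overlapping and higher and 3 lower, against 25.8% and 26.4% of all genes, with a median log2 fold change of 0.55 and 2 higher DEGs, Rpl36 and Rpl22l1. Without replicate 1 labelled Crtc1-/- 20 were higher DEGs, and 1 without any 1 of the other libraries, and the median was 0.26 without replicate 2 labelled Crtc1-/- and 0.34 without replicate 2 labelled Crtc1+/+. Upper-quartile scaling gave 4. They held 2.28% and 3.20% of counts in the libraries labelled Crtc1-/- and 2.12% and 1.57% in those labelled Crtc1+/+. Of 78 respiratory chain genes 60 were non-overlapping and higher and 10 lower, with a median of 0.46 and 1 DEG, Atp5e, at 198 and 259 CPM against 121 and 91.4 CPM. Without replicate 1 labelled Crtc1-/- 10 were higher DEGs and 2 lower, 0 were DEGs without replicate 2 of either label, and 4 were higher under upper-quartile or library-size scaling. Of 37 proteasome subunits 20 were non-overlapping and lower and 1 higher, with a median of -0.35 and 1 lower DEG, Psmd13. Of 14 genes of the unfolded protein response 9 were non-overlapping and lower and 0 higher, with 0 DEGs and a median of -0.41. Hspa5, the chaperone BiP, was at 363 and 406 CPM against 466 and 684 CPM. The 78 mitochondrial ribosomal proteins had a median of -0.01. Short transcripts as a class were slightly higher: the median log2 fold change was 0.13 for 746 genes with a median transcript length under 600 bases and between -0.02 and 0.06 in the 4 longer classes. The median ribosomal protein transcript was 632 bases and that of the respiratory chain 608. Ribosomal protein genes of 1000 bases or more, 4 in number, had a median of 0.54. The part of length in these values was not tested further.

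**Figure D5:**
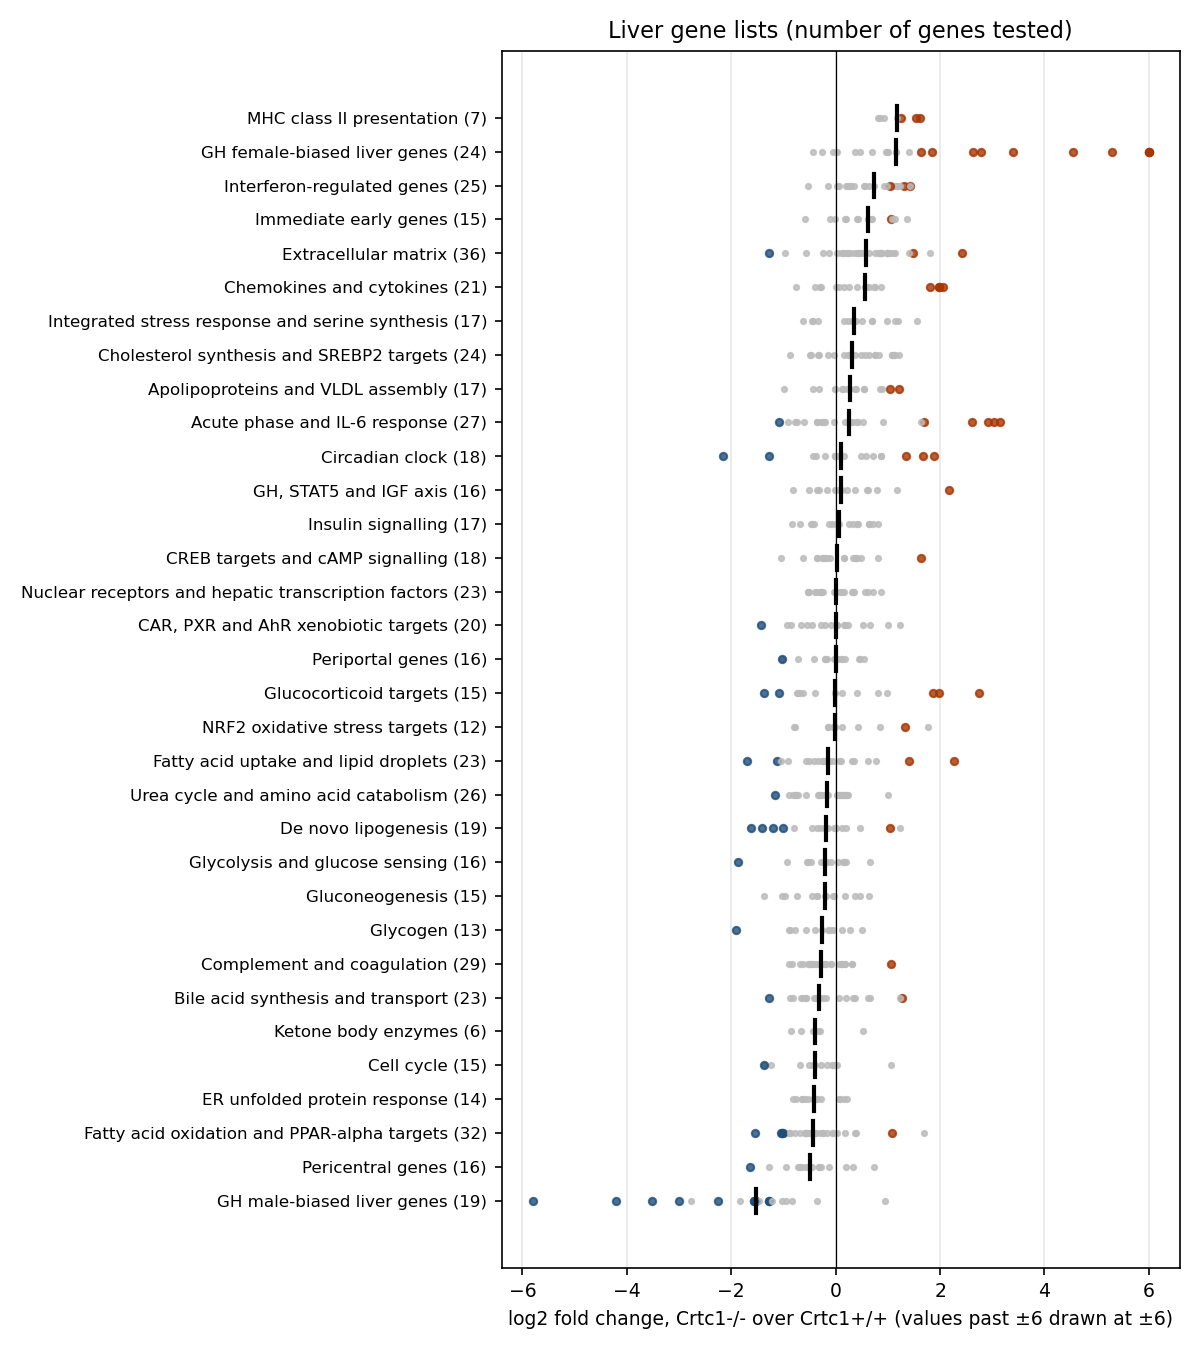
Each row is a list of genes with the number tested in brackets, each point a gene by its log2 fold change, libraries labelled Crtc1-/- over those labelled Crtc1+/+, and each black bar the list's median. Brown points are higher DEGs, blue points lower DEGs and grey points neither, and values past 6 in either direction are drawn at the edge. Among the programs drawn, which leave out cell type markers and gene families, the female-biased list and MHC class II lie furthest right by median, at 1.16 and 1.17, and the male-biased list furthest left, at -1.52.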

How the data were processed

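RNA-seq was done on the 4 liver libraries described above, by the Beijing Genomics Institution per the study's methods. The authors deposited estimated counts per gene, 5.44% to 6.25% of them not whole, and FPKM per gene. The submitters' processing notes name HISAT, Bowtie2 and the build GRCm38.p6; the counting tool, its annotation and the versions were not given in the sources used here. Reads of near-identical genes may therefore be split in ways that cannot be followed.

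The deposited counts were rounded to whole numbers, and genes were filtered with filterByExpr, scaled by TMM and tested with the quasi-likelihood test of edgeR 4.0.16 (R 4.3.3), libraries labelled Crtc1-/- against Crtc1+/+. DEGs differed by more than 1 on the log2 scale at p under 0.01, and p-values were adjusted over all 11707 genes by Benjamini-Hochberg. Fold changes used edgeR's default prior count, and the SE was derived from the fold change and its F statistic. The authors' deposited FPKM were used for limma 3.58.1 on quantile-normalised log2(FPKM + 1) or log2(FPKM + 0.1), as alternatives with DESeq2 1.42.0, other filters and scalings, all 8 libraries, a replicate block, and each library left out. The edgeR script was tested on simulated data. Totals of 16560085 to 19721481 counts put the floor of 3 counts at 0.154 to 0.175 CPM, which covers counting error only. Figures were drawn with matplotlib 3.10.9.

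Genes named were Crtc1, every gene below 0.05 after adjustment, the 12 DEGs that rose most and the 12 that fell most without overlap and with mean log2 CPM no lower than 1, and from each list up to 5 non-overlapping members a direction by p, its first 3 genes and its 2 most abundant. The Y-linked genes and other list members were chosen after their values were seen. Members and lists were chosen with earlier results of these data known. Transcript lengths and shared windows came from reference transcripts and promoter sequences from RefSeq. Some genes are not reported here.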

Additional observations from a re-analysis of the deposited data

How the results depend on the processing

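The DEG count of 500 was 158 with limma on log2(FPKM + 1), 245 with all 8 libraries in one fit and 159 to 1306 with 1 library left out, and stayed within 1.5 times under the other alternatives. The 10 genes with an adjusted p under 0.05 became 311 with DESeq2, 301 without an expression filter and 82 with the replicate block. Limma gave 0 at either pseudocount, with 1799 and 1732 genes at an unadjusted p under 0.05, and the fit of all 8 libraries gave 0, with 1536. Leaving out 1 library gave 1 to 1507. The genes without overlap, 6104, were 8998 to 9730 with 1 library left out, where fewer libraries must separate. With 1 library left out the log2 fold change of Pck1, -0.02 in the full fit, ran from -0.79 to 1.62, so Pck1 had no clear direction. The value of Cish ran from -1.19 to 2.01, that of Selenbp2 from -1.11 to 1.75 and that of G6pc from -2.13 to 0.26. The direction of each of these rested on 1 library: replicate 2 labelled Crtc1+/+ for G6pc and replicate 1 labelled Crtc1-/- for Cish and Selenbp2. Sqle, not a DEG, turned to -0.40 without replicate 2 labelled Crtc1-/-. The causes were not tested.

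The replicate numbers mark no shared source, and deviations of same-numbered libraries correlated at 0.0736 across genes with 2 pairs. The replicate block gave 579 DEGs, 478 of them among the 500. With 2 libraries a group, the p-values measure the spread between these libraries alone, and low counts limit genes near the floor. The share of DEGs that were higher was 54.7% with limma on log2(FPKM + 0.1).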

Other observations

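Some programs named by the lists held few calls. Of 17 tested insulin signalling genes 0 were DEGs, with a median log2 fold change of 0.06, and of 17 genes of the integrated stress response 0 were DEGs, with a median of 0.35. The latter median was -0.02 without replicate 1 labelled Crtc1-/- and 0.72 without replicate 2 of that label. Of 23 nuclear receptors and hepatic transcription factors 0 were DEGs, with a median of 0.01. Of 15 cell cycle genes 1 was a lower DEG, the inhibitor Cdkn1a already counted among the glucocorticoid-responsive genes. In that list 8 were non-overlapping and lower with 1 higher. Of 14 UDP-glucuronosyltransferases, which attach glucuronic acid to drugs and bilirubin, 1 was a lower DEG and 6 were non-overlapping and lower with 0 higher. Their median of -0.45 was -0.72 without replicate 1 labelled Crtc1-/- and -0.004 without replicate 2 labelled Crtc1+/+. With all 8 libraries in one fit 0 were DEGs. Of 20 glutathione transferases 1 was a lower DEG, with 8 non-overlapping and higher and 4 lower. Among 66 cytochrome P450 genes 6 were higher DEGs and 4 lower, against 2.84% and 1.43% of all genes. With all 8 libraries in one fit 0 of 76 tested were DEGs. Of 29 complement and coagulation genes 1 was a higher DEG, F9, coagulation factor IX, at 109 and 160 CPM under the Crtc1-/- label and at 55.9 and 73.6 CPM under the Crtc1+/+ label, and 11 were non-overlapping and lower with 5 higher. The shares of all tested genes to set beside these counts of non-overlapping genes were 26.4% lower and 25.8% higher.

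Hapln4, a link protein of the extracellular matrix, was a lower DEG at 2.41 and 1.93 CPM under the Crtc1-/- label against 11.2 and 9.60 CPM, with a log2 fold change of -2.26 and an adjusted p of 0.0524 in edgeR. The groups lay well apart, and the replicates of each were close.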
